A study of Homo sapiens with 12 samples.

Results

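The 5 genes described here encode carriers that move bile salts, drugs and other organic anions from the blood into hepatocytes: SLC10A1, SLCO1B3, SLCO2B1, SLC22A7 and SLC22A9. They were taken by gene symbol from the deposited expression table, in which each symbol named 1 locus, so that they are 5 of 15822 loci. All 5 passed the filter on low values, which 15792 loci passed. RNA sequencing had been done on HepaRG cells, a human hepatoma line that can differentiate into hepatocyte-like and biliary-like cells. The 12 libraries fall into 6 groups of 2, from 2 genotypes, wild type (WT) and hCAR-KO (KO, in which the gene of the human receptor CAR was knocked out), each with 3 agents, DMSO, PB and CITCO. The study asked how the transcriptome responds to these agents with and without the receptor. Nothing in the labels says whether duplicates are separate cultures, and p-values therefore reflect the spread of these libraries alone, which may be technical. The sources used here do not give the doses, the length of exposure, how the receptor gene was disrupted or whether the KO line is 1 clone.

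Uptake carriers sit in the sinusoidal membrane of the hepatocyte, the face turned to the blood, and decide which compounds reach the enzymes and export pumps inside. SLC10A1 encodes NTCP, which takes up conjugated bile salts together with sodium and is the entry receptor of hepatitis B virus. SLCO1B3 and SLCO2B1 encode OATP1B3 and OATP2B1, sodium-independent carriers of steroid conjugates and statins. OATP1B3 also carries bile salts and is largely restricted to the liver, whereas OATP2B1 is found in many tissues. SLC22A7 encodes OAT2 and SLC22A9 encodes OAT7, organic anion transporters that are both most abundant in liver. The constitutive androstane receptor (CAR, gene NR1I3) is a nuclear receptor that switches on drug-metabolising enzymes and transporters. Phenobarbital (PB) activates it indirectly and the synthetic compound CITCO binds it. HNF4A and the bile acid receptor FXR (gene NR1H4) are among the factors known to act on uptake carrier genes.

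In the GENCODE 29 annotation (GRCh38), SLC10A1 (ENSG00000100652.4) lies on chromosome 14 from 69775417 to 69797289 on the minus strand. SLCO1B3 (ENSG00000111700.12) lies on chromosome 12 from 20810702 to 20916911, and SLCO2B1 (ENSG00000137491.14) on chromosome 11 from 75100563 to 75206549. SLC22A7 (ENSG00000137204.14) lies on chromosome 6 from 43295694 to 43305538, and SLC22A9 (ENSG00000149742.9) on chromosome 11 from 63369789 to 63410294. The last 4 are on the plus strand. The values count reads over a whole gene locus and do not separate transcripts. The sources used here do not give library strandedness, so reads of SLC22A7 and of CRIP3 on the opposite strand cannot be told apart where these genes overlap. The same holds for SLCO2B1 and an antisense RNA (AP001972.4), and SLCO1B3 overlaps a protein-coding gene on its own strand (AC011604.2).

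The DNA just upstream of the start sites is shown because the genes with an annotated window differed between the genotypes to very different degrees, and because the factors named above bind short motifs in such regions. RefSeq promoter windows (GRCh38.p14) were matched by symbol for 4 of the 5 genes, with 2 windows for SLCO2B1. SLC22A9 had no window. Both windows of SLCO2B1 and that of SLC22A7 lie inside the gene spans given above, so they precede internal starts. Which start these cells use was not tested. The 250 bases before each start were searched on both strands for the HNF4 site CAAAGTCCA, the nuclear receptor half-sites AGGTCA and AGTTCA, and the TATA box TATAAA. Only the parts outside annotated exons are printed, 5′ to 3′ on the strand of the gene, with matches in capitals. The stretches are chr14:69797290-69797491 for SLC10A1 (minus strand), chr12:20810455-20810701 for SLCO1B3, chr11:75159582-75159779 for the SLCO2B1 window that held a match and chr6:43298092-43298259 for SLC22A7 (plus strand for the last 3).
SLC10A1: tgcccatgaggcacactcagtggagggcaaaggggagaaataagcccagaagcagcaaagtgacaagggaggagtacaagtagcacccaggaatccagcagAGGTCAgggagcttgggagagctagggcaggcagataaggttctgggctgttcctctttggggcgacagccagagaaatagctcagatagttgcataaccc
SLCO1B3: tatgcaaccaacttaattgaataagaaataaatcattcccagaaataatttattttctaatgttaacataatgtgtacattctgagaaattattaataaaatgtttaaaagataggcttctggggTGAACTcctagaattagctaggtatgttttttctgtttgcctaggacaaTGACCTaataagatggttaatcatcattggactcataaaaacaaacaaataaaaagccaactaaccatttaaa
SLCO2B1: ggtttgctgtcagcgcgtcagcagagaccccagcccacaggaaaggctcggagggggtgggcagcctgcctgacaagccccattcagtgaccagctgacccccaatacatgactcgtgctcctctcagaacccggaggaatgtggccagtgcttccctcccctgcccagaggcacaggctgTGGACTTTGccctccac
SLC22A7: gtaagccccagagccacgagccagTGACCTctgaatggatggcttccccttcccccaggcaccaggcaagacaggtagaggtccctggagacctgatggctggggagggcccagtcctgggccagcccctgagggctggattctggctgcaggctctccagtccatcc

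SLC10A1 held 1 nuclear receptor half-site, AGGTCA, whose first base is 149 bases before the start. SLCO1B3 held 2 matches, the reverse complement TGACCT of a half-site at 76 bases and TGAACT at 125 bases before the start. SLCO2B1 held 1 match, the HNF4 site as its reverse complement TGGACTTTG, at 69 bases before the start of the downstream window, and none in the other window. SLC22A7 held TGACCT at 144 bases before the start. Among 35116 RefSeq windows of the same length, 12.1% held AGGTCA, 8.80% AGTTCA and 0.325% the HNF4 site, each on either strand. No match overlapped another. A match of this kind is a description of the letters and not a binding site. The TATA box, which 10.7% of windows held, was not matched in these windows.

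Levels are in counts per 1e6 reads (CPM) on the authors' scaling. Depth per library ran from 49258123 to 66453415 reads, so that each gene rested on at least 493 reads in every library. Duplicates differed from each other by more than sampling noise in all 6 groups. Genotype differences depend on scaling, because the median over all loci of KO minus WT shifted upwards by 0.25 under DMSO, 0.24 under PB and 0.24 under CITCO (log2) when every library was scaled to its own total. The number of loci called higher and lower in KO cells under DMSO moved from 4462 and 4644 to 8308 and 2311. Differences are given on the authors' scaling, and the other scaling is named where it changes a call or a direction. Under DMSO, NR1I3 itself had a mean of 11.7 ± 0.36 CPM in WT cells, against 10.8 ± 0.321 CPM in KO cells (SD, n = 2), a log2 difference of -0.12 (limma adjusted p = 0.273) that was 0.14 on the total scaling (adjusted p = 0.172). This checks nothing about the knockout, because the position of the edit is not known from the labels.

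Compared per kilobase of transcript, SLC22A7 and SLCO2B1 were the most abundant of the 5 carriers in every group. In WT cells under DMSO the mean levels were 84.7 CPM per kb for SLC22A7, 72.9 for SLCO2B1, 25.3 for SLCO1B3, 17.8 for SLC10A1 and 5.84 for SLC22A9. In KO cells under DMSO they were 76.1, 38.1, 5.14, 4.16 and 4.48 CPM per kb in the same order. By this measure SLC10A1 was above SLC22A9 in the 3 WT groups; among the KO groups it was above SLC22A9 under PB (5.05 against 3.93) and under it with DMSO and with CITCO.

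**Figure D1:**
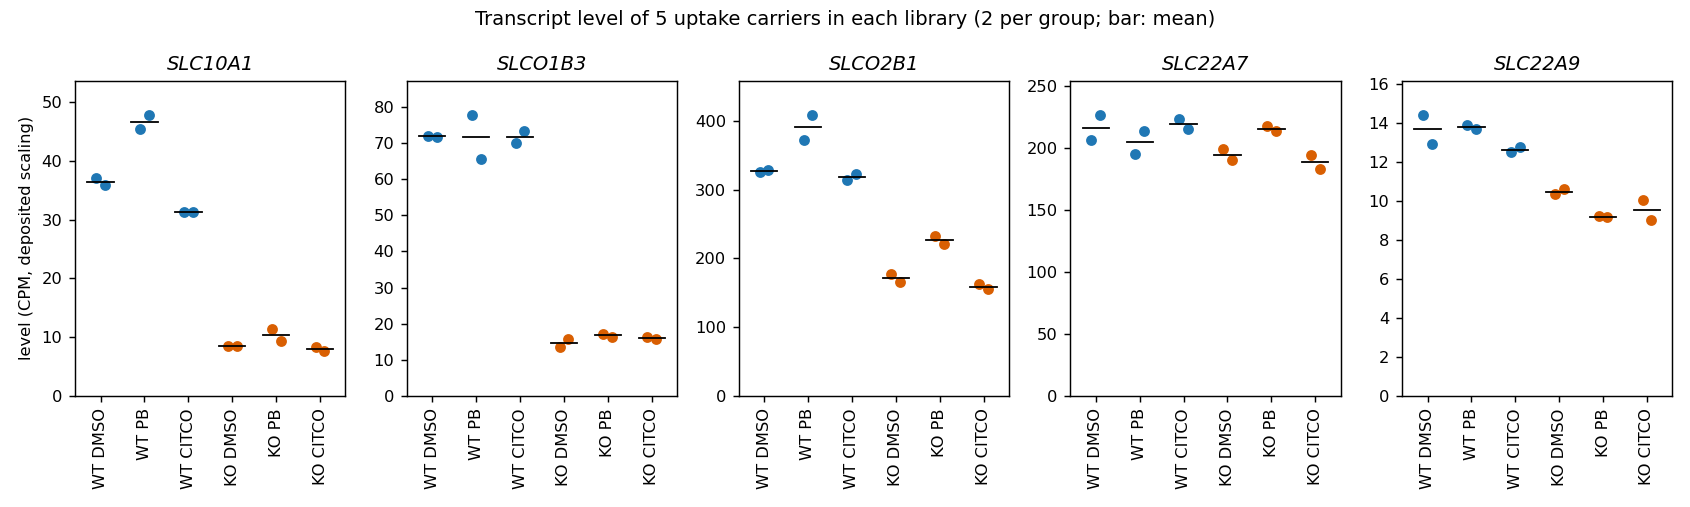
Level in CPM (vertical axis, linear, from 0) of each carrier in each of the 12 libraries, WT blue and KO orange, with a bar at the mean of each pair. SLC10A1, SLCO1B3 and SLCO2B1 separate by genotype in all 12 libraries, with KO libraries at no more than 11.3, 17.2 and 233 CPM, whereas SLC22A7 stays between 183 and 227 CPM throughout.

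The first comparison asked how the carriers differ between KO and WT cells without drug. Under DMSO all 5 carriers were lower in KO cells on the authors' scaling. Their means were at 20.3% (SLCO1B3), 23.3% (SLC10A1), 52.2% (SLCO2B1), 76.7% (SLC22A9) and 89.8% (SLC22A7) of the WT mean. With limma all 5 passed an adjusted p of 0.05, against 57.7% of all loci tested, and 29.4% of loci were called lower. Because a call of some kind is so common between these genotypes, the count alone says little about the carriers. Their median difference was -0.94 on the log2(CPM + 0.5) scale, against -0.0032 over all loci. The carriers were chosen with earlier results of these data known, so this gap describes them and is not a test.

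SLC10A1, the sodium-dependent bile salt carrier, was at 37.1 and 35.9 CPM in the WT DMSO libraries and at 8.48 and 8.56 CPM in the KO DMSO libraries. The groups lie far apart, and each pair of duplicates differed by little. KO cells were lower by 4.10-fold (log2 difference -2.04, SE 0.085; 95% interval of the fold 3.62 to 4.65; limma adjusted p = 5.65e-13). Of all loci tested, 0.443% had a lower log2 difference. The gap was 4.36-fold under PB (adjusted p = 2.82e-13) and 3.75-fold under CITCO (adjusted p = 1.44e-12).

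SLCO1B3, the liver-specific organic anion transporter, had 72.1 and 71.8 CPM under DMSO in WT cells. In KO cells it had 13.4 and 15.8 CPM. No KO library came near the lowest WT library, which was a PB library at 65.7 CPM. The fold was 4.82 (log2 difference -2.27, SE 0.082; 95% interval 4.27 to 5.43; limma adjusted p = 7.28e-14), and 0.291% of loci had a lower value. Under PB and CITCO the folds were 4.19 and 4.38.

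SLCO2B1, the more widely expressed relative, had 326 and 329 CPM in WT and 177 and 165 CPM in KO cells under DMSO. The groups do not overlap. The decrease was 1.91-fold (log2 difference -0.94, SE 0.048; 95% interval 1.78 to 2.05; limma adjusted p = 9.93e-12). It was 1.72-fold under PB and 2.00-fold under CITCO. On the total scaling the 3 folds of SLCO2B1 were 1.59, 1.44 and 1.68, and the calls of SLC10A1, SLCO1B3 and SLCO2B1 held under all 3 agents.

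SLC22A9, which encodes OAT7, was the lowest of the 5 in WT cells, at 14.4 and 12.9 CPM under DMSO, and was at 10.4 and 10.6 CPM in KO cells. All 6 KO libraries, from 9.01 to 10.6 CPM, lay under all 6 WT libraries, from 12.5 to 14.4 CPM. The log2 difference was -0.37 under DMSO (limma adjusted p = 0.00206), -0.56 under PB (adjusted p = 3.52e-05) and -0.39 under CITCO (adjusted p = 0.00112). On the total scaling the difference of SLC22A9 was -0.11 under DMSO (adjusted p = 0.286), -0.32 under PB (adjusted p = 0.00474) and -0.15 under CITCO (adjusted p = 0.146), so that only the call under PB was kept.

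SLC22A7, which encodes OAT2, was at 206 and 227 CPM in WT and at 199 and 190 CPM in KO cells under DMSO. These groups do not overlap but are separated by less than the gap between the WT duplicates. The log2 difference was -0.15 under DMSO (limma adjusted p = 0.0172), 0.08 under PB (adjusted p = 0.21) and -0.22 under CITCO (adjusted p = 0.00158). On the total scaling these differences became 0.11 (adjusted p = 0.0709), 0.33 (adjusted p = 2.90e-05) and 0.035 (adjusted p = 0.571), so that the direction of SLC22A7 reversed under DMSO and CITCO, while under PB it was positive on both scalings and called on the total scaling alone. The call under DMSO was also lost without the second WT DMSO library (adjusted p = 0.216) or the second KO DMSO library (adjusted p = 0.13) and with a constant prior variance (adjusted p = 0.0914), and under PB one was gained without the second WT PB library (0.14, adjusted p = 0.041). In the authors' deposited table of KO against WT under DMSO, SLC22A7 had an FDR of 0.081 at a log2 fold of -0.15.

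**Figure D2:**
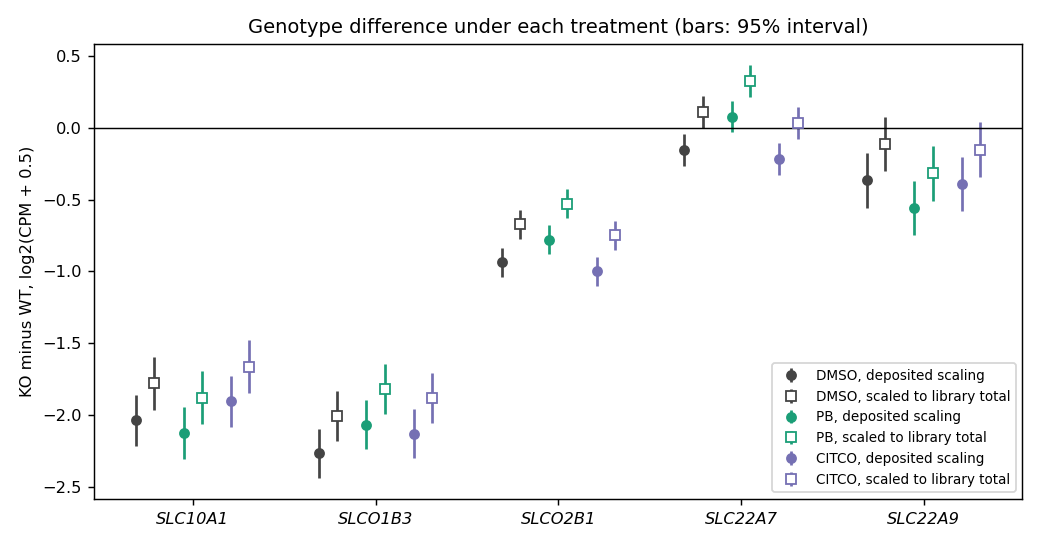
Difference KO minus WT on the log2(CPM + 0.5) scale (vertical axis) for each carrier under DMSO, PB and CITCO, with 95% intervals; filled circles use the authors' scaling and open squares libraries scaled to their totals. SLC10A1, SLCO1B3 and SLCO2B1 lie under 0 on both scalings, SLC22A7 changes side under DMSO and CITCO but not under PB, and SLC22A9 moves towards 0.

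Under PB 4 of the 5 carriers were lower in KO cells, all but SLC22A7, against 58.3% of loci called and 28.9% called lower. Under CITCO all 5 were lower, against 59% called and 29.8% called lower. The 3 genotype comparisons use different libraries.

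A reading that needs no scaling between libraries is the share of each carrier in the summed level per kilobase of all 5. SLC22A7 made up 35.5 to 43.1% of that sum in the 6 WT libraries and 55.8 to 60.1% in the 6 KO libraries. SLC10A1 made up 7.53 to 10.3% in WT libraries, against 3.12 to 3.62% with the receptor knocked out. SLCO1B3 made up 10.2 to 12.8% against 3.61 to 4.68%. The genotypes do not overlap in any of these. SLCO2B1 went from 34.5 to 40.1% in WT to 28.7 to 34.0% in KO libraries, a narrow separation. SLC22A9 held 2.57 to 3.04% in WT and 2.58 to 3.61% in KO libraries, which overlap. Within a library, reads of SLC10A1 were 0.140 to 0.233 times those of SLC22A7 in WT and 0.0418 to 0.0521 times in KO cells. The shares of 1 library add up to a fixed sum, so a lower share of some carriers is a higher share of others.

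**Figure D3:**
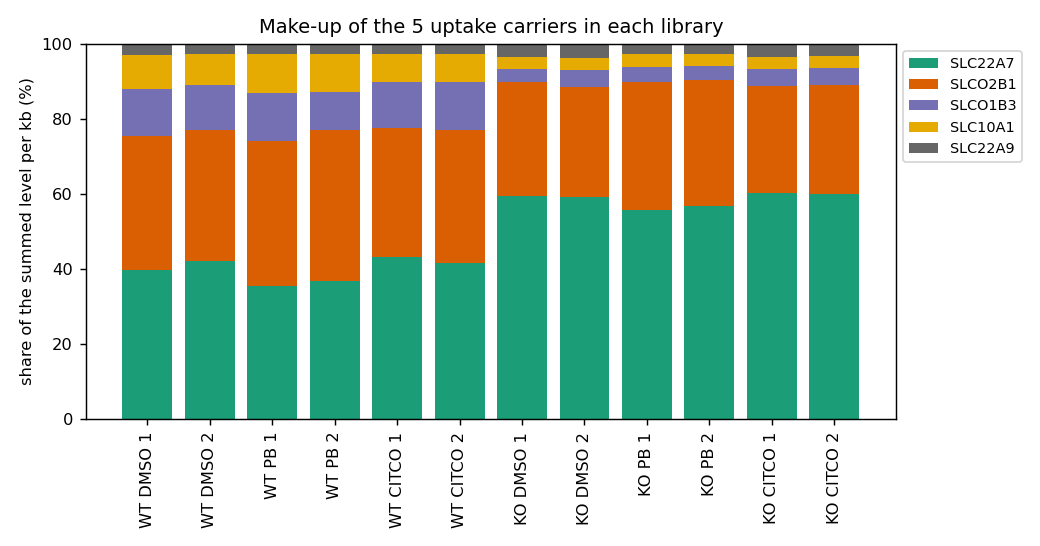
Share of each carrier (vertical axis, percent) in the summed CPM per kb of the 5 carriers, as 1 stacked bar for each of the 12 libraries. SLC22A7 takes 35.5 to 43.1% of each WT bar and 55.8 to 60.1% of each KO bar, and the SLCO1B3 and SLC10A1 segments are thinner in KO libraries.

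The next comparisons asked how the carriers respond to PB in each genotype. In WT cells PB raised SLC10A1 and SLCO2B1 by modest amounts, and the other 3 carriers did not pass the test. With limma 2 of the 5 were called, both higher, against 6.42% of all loci called and 2.66% called higher. SLC10A1 rose from 37.1 and 35.9 CPM to 45.4 and 47.9 CPM, and the groups do not overlap. The increase was 1.27-fold (95% interval 1.13 to 1.44; limma adjusted p = 0.0172).

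SLCO2B1 rose from 326 and 329 CPM to 373 and 409 CPM, again without overlap. The increase was 1.19-fold (95% interval 1.11 to 1.28; limma adjusted p = 0.00251). Both calls were lost when only the 4 libraries compared entered the fit (adjusted p = 0.0583 for SLC10A1 and 0.0686 for SLCO2B1) or with a constant prior variance (0.0612 and 0.0778), and edgeR and DESeq2 on recovered reads called both. The call of SLC10A1 was also lost without the second WT DMSO library (adjusted p = 0.0688) or the second WT PB library (adjusted p = 0.109).

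SLCO1B3 had 77.9 and 65.7 CPM under PB, a pair that spans the WT DMSO libraries, and a log2 difference of -0.01 (95% interval -0.18 to 0.16; limma adjusted p = 0.977). SLC22A7 had 195 and 213 CPM (log2 difference -0.08, interval -0.19 to 0.03; adjusted p = 0.429). SLC22A9 had 13.9 and 13.7 CPM (0.01, interval -0.18 to 0.20; adjusted p = 0.96). The values of these 3 carriers overlapped with those under DMSO, and changes inside these intervals could not be told from none with 2 libraries a group.

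In KO cells, labelled as lacking the receptor, PB raised SLCO2B1 and no other carrier passed the test. The count was 1 of 5 with limma, against 6.96% of all loci called and 3.87% called higher. SLCO2B1 went from 177 and 165 CPM to 233 and 222 CPM, with no overlap. The increase was 1.33-fold (95% interval 1.24 to 1.42; limma adjusted p = 1.45e-05).

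SLC10A1 had 11.3 and 9.4 CPM under PB in KO cells, both above its KO DMSO libraries, with a log2 difference of 0.26 (95% interval 0.08 to 0.44; limma adjusted p = 0.0777). The size of this rise depended on single libraries. With 1 library left out at a time the log2 difference ran from 0.13 to 0.39, the highest value being that without the second KO PB library. In the authors' deposited table of PB against DMSO in KO cells, SLC10A1 had a log2 fold of 0.28 and an FDR of 0.0443. SLC22A7 had 217 and 214 CPM (log2 difference 0.15; limma adjusted p = 0.103, and 0.0207 in a fit of the 4 libraries alone), and SLCO1B3 17.2 and 16.2 CPM (0.19; adjusted p = 0.207). SLC22A9, at 9.21 and 9.19 CPM, was the 1 carrier with values under those of KO DMSO (-0.18; adjusted p = 0.31).

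The difference of the PB response between genotypes was tested as an interaction. None of the 5 carriers was called with limma, against 1.01% of all loci, and 2 had an unadjusted p under 0.05. These were SLC22A7, whose PB response was higher in KO than in WT cells by 0.23 on the log2 scale (95% interval 0.08 to 0.39; limma adjusted p = 0.227), and SLCO2B1 (0.16, interval 0.01 to 0.30; adjusted p = 0.473). For SLC10A1 the difference was -0.09 (interval -0.34 to 0.17; adjusted p = 0.894). The rise of SLC10A1 that passed the test in WT and not in KO cells was therefore not shown to differ between them.

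CITCO raised or lowered none of the carriers past the test in either genotype. With limma 0 of 5 were called in WT cells, against 2.2% of all loci, and 0 of 5 in KO cells, against 0.811%. In each genotype 1 carrier had an unadjusted p under 0.05, and edgeR and DESeq2, run on the WT reads, called 0 as well. In WT cells that carrier was SLC10A1, at 31.3 CPM in both CITCO libraries, under both DMSO libraries (log2 difference -0.22, 95% interval -0.40 to -0.04; limma adjusted p = 0.208). In KO cells it was SLCO2B1, at 163 and 155 CPM (-0.11, interval -0.21 to -0.0044; adjusted p = 0.427).

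SLCO1B3 under CITCO was at 70.1 and 73.4 CPM in WT and 16.2 and 15.8 CPM in KO cells. SLC22A7 was at 223 and 215 CPM in WT and 194 and 183 CPM in KO cells. SLC22A9 was at 12.5 and 12.8 CPM in WT and 10.04 and 9.01 CPM in KO cells. None of these passed the test against DMSO. The interaction of CITCO and genotype called 0 of the 5 with limma, against 0.336% of loci, and 0 had an unadjusted p under 0.05.

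**Figure D4:**
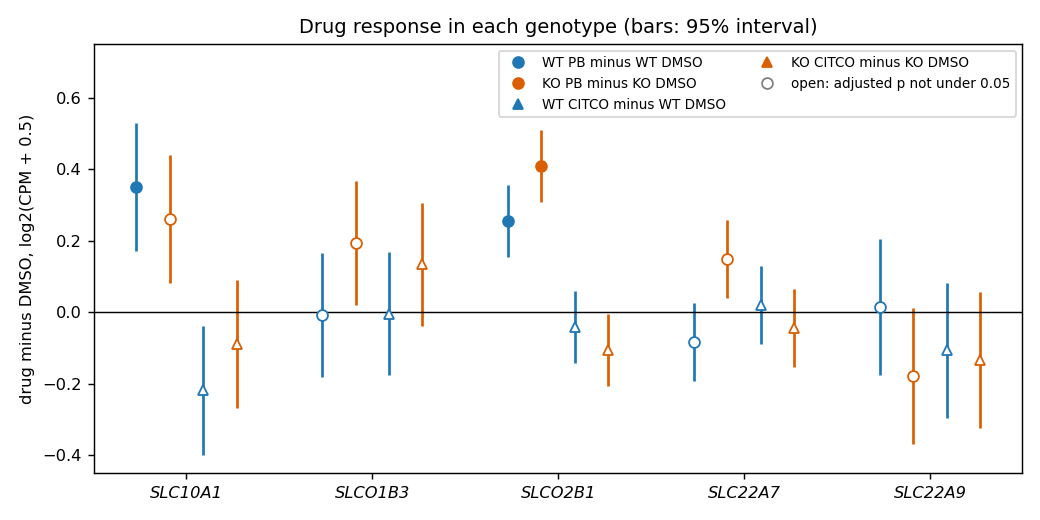
Drug minus DMSO on the log2(CPM + 0.5) scale (vertical axis) for each carrier, PB as circles and CITCO as triangles, WT blue and KO orange, with 95% intervals; filled symbols passed an adjusted p of 0.05. The filled symbols are SLC10A1 under PB in WT cells (0.35) and SLCO2B1 under PB in WT (0.25) and KO cells (0.41).

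PB and CITCO share the DMSO controls in the responses above, so the agents were compared directly. In WT cells 2 of the 5 were higher under PB than under CITCO, against 6.28% of loci called and 2.65% called higher: SLC10A1 by 1.48-fold (95% interval 1.31 to 1.68; limma adjusted p = 0.000393) and SLCO2B1 by 1.23-fold (1.14 to 1.32; adjusted p = 0.000826). In KO cells 3 were higher under PB, against 5.48% called and 3.57% called higher. SLCO2B1 was higher by 1.43-fold (1.33 to 1.53; adjusted p = 8.87e-07), SLC10A1 by 1.27-fold (adjusted p = 0.0187) and SLC22A7 by 1.14-fold (adjusted p = 0.036). The call of SLCO2B1 in WT cells was lost with a constant prior variance (adjusted p = 0.0521), as was that of SLC10A1 in KO cells (0.0678). The last 2 calls in KO cells each rested on single libraries: SLC10A1 lost its call without the first KO PB library (adjusted p = 0.346) or the second KO CITCO library (adjusted p = 0.205), and SLC22A7 without any 1 of the 4 libraries (adjusted p from 0.066 to 0.327) and on the total scaling (adjusted p = 0.122). Without the doses of the agents, the comparison is one of these libraries and not of matched exposures.

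Ordered by mean level, SLC10A1 ran from WT PB through WT DMSO and WT CITCO to KO PB, KO DMSO and KO CITCO. The steps from WT PB to WT DMSO and from WT CITCO to KO PB passed the test, and the others did not. SLCO2B1 had the same order, and its 3 called steps were those 2 and the step from KO PB to KO DMSO. SLCO1B3 had 1 called step, from the lowest WT group to the highest KO group, and so did SLC22A9. SLC22A7 had none. In all, 7 of 25 steps between neighbours were called with limma. The order was set by the same means that were tested, so these calls describe the order and do not test it independently. Each called step from a WT to a KO group also changes the agent.

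The loci whose centred profile over the 12 libraries lay nearest to each carrier were taken by the root mean square difference among 15196 loci. Nearest to SLC10A1 were CPB2 (0.13 log2 units, r = 0.992), BTNL8 and DGAT2, which makes triglycerides. Nearest to SLCO1B3 were ACSM3 (0.10, r = 0.998), RP11-422N16.3 and CLU, which encodes clusterin. Nearest to SLCO2B1 were SARDH (0.07, r = 0.991), SERPINA6, which encodes corticosteroid-binding globulin, and the amino acid carrier SLC38A3. SLC22A9 lay nearest to LGR4, RP11-395B7.7 and the tight junction gene OCLN, and SLC22A7, which hardly varied, to FAU, C2CD2L and MRPL11. These are descriptions over libraries that share the genotype split, and among the carriers r ran from 0.343 (SLC22A7 and SLC22A9) to 0.980 (SLC10A1 and SLCO1B3).

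Other carriers of the same families did not follow 1 pattern. Of 10 other SLCO genes listed, 3 were measured. Under DMSO 1 of these 3 was higher and 1 lower in KO cells, SLCO4A1 and SLCO1A2. On the total scaling the counts were 2 and 1, which adds SLCO3A1 at 0.32 (limma adjusted p = 0.0133). The differences of SLCO4A1 and SLCO1A2 rest on low levels, where fold changes depend on the pseudocount. Mean SLCO4A1 was 2.02 CPM for KO against 0.0531 CPM for WT, and mean SLCO1A2 1.06 against 2.30 CPM. SLCO1B1, the closest relative of SLCO1B3, was not among the 3 measured genes and was not analysed here. Of 11 other SLC22 genes 1 was higher and 5 lower (median log2 difference -0.19), and on the total scaling 4 and 4. Of 28 further solute carriers of the hepatocyte 5 were higher and 19 lower (median -0.46; 7 and 16 on the total scaling), with the zinc carrier SLC39A14 at -1.70 and the bile acid exporter subunit SLC51A at 1.99. Over all loci the median was -0.0032.

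Of the 28 further solute carriers PB raised 8 and lowered 2 in WT cells, and raised 8 and lowered 0 in KO cells (3 and 2 lowered on the total scaling). These included the fatty acid carrier SLC27A2 (0.84 in WT and 1.08 in KO cells on the log2 scale). The PB response was higher in KO than in WT cells for 3 of the 28, SLC27A5 (by 0.42), SLC38A4 (0.40) and SLC38A3 (0.26), with limma adjusted p = 0.0307, 0.00758 and 0.0374, the last lost on the total scaling (0.0609).

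Of 21 transcription factors listed for their known action on uptake carrier genes, 4 were higher and 14 lower in KO cells under DMSO (median -0.32; 5 and 9 on the total scaling, median -0.06). HNF4A went from 313 ± 8.88 CPM in WT to 171 ± 7.93 CPM in KO cells (SD, n = 2; log2 difference -0.87, limma adjusted p = 6.57e-12; -0.60 on the total scaling). NR1H4, the bile acid receptor, had -0.32 (adjusted p = 5.47e-05), and NR1I2, the pregnane X receptor, -0.26 (adjusted p = 0.00173), and neither kept its call on the total scaling (adjusted p = 0.359 and 0.958). FOXA3, FOXA1 and CEBPA fell by 1.62, 1.24 and 1.11, and STAT5B (0.91), FOXA2 (0.57) and AHR (0.26) were the 3 largest rises. Among these 21 genes PB raised NR1I3 (0.36 in WT and 0.54 in KO cells) and NFE2L2 (0.28 and 0.23) and no other was called on the authors' scaling. RARA, named after its values were seen, had -0.25 under PB in WT cells (limma adjusted p = 0.0702) and was called lower on the total scaling (-0.26, adjusted p = 0.0487). Whether any of these factors bears on the carriers was not tested.

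Markers of cell types moved with genotype. Summed over 11 measured hepatocyte markers the level was 151873 to 170306 CPM over the WT libraries and 73481 to 77961 CPM over the KO libraries. Of these 11, 7 were lower and 2 higher under DMSO (6 and 4 on the total scaling), with ALB at -1.55 and HP at 0.32. The 5 biliary markers summed to 560 to 694 CPM (WT) and 261 to 297 CPM (KO), 3 lower and 2 higher (2 and 2 on the total scaling), and 7 mesenchymal markers to 125 to 142 and 280 to 303 CPM, 1 lower and 4 higher (0 and 6). The 6 cell cycle genes, all higher, summed to 160 to 221 and 408 to 517 CPM, the 3 endothelial markers to 82.2 to 115 and 65.8 to 93.1 CPM, and the 4 fetal or progenitor markers to 211 to 236 and 159 to 189 CPM. Of 6 macrophage and leukocyte markers only CD14 was measured, at 3.70 to 7.84 and 6.05 to 18.8 CPM. No measured marker of these lists was at 0 in all libraries, and their part in the lower carrier levels was not tested. In bulk RNA, fewer hepatocyte-like cells and less carrier RNA per cell cannot be told apart.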

How the data were processed

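The authors deposited 1 table of normalized signal for 15822 loci, whose name calls the values CPM; column totals were 0.9 to 1.114 times 1e6, so the values carry normalization factors. Per the submitters' processing notes, which assign no roles, the authors used edgeR 2.12, TopHat2 2.0.10 and Bowtie 1.0.0, with Cuffdiff 2.1.1 and Cufflinks 2.1.1, and the builds GRCh37 and GRCh38. RNA was isolated with a column kit, per the labels' protocols. Dividing each value by the worth of 1 read gave whole numbers throughout, to within 0.001 reads. The design had assumed plain CPM. Chi-square per degree of freedom between duplicates was 4.15 to 10.4, so no library was counted as a repeat.

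Members and gene lists were chosen with earlier results of these data known. limma 3.58.1 (R 4.3.3) was fitted to log2(CPM + 0.5) of the deposited values, over 12 libraries with 6 group means, 6 residual degrees of freedom and a prior variance with a trend, for 11 comparisons. The 15792 loci that reached 1 CPM in 2 or more libraries were tested, with Benjamini-Hochberg adjustment over all of them and calls at an adjusted p under 0.05. The pseudocount makes fold changes of low genes too small. Levels per kb use GENCODE 29 transcript lengths. Named genes are the 5 carriers, fixed regulators, the knocked-out gene and from each list at most 3 genes each way with the largest called difference, and the 3 nearest profiles of each carrier. Some genes that this rule names are not reported here. edgeR 4.0.16 (quasi-likelihood, TMM) and DESeq2 1.42.0 were run as alternatives on reads recovered for the 6 WT libraries. The fit was tested on simulated reads, drawn from the WT DMSO means with rises in WT PB alone. Those rises were larger than the called PB responses of the carriers. No genotype difference was simulated, so the test does not cover the genotype comparisons. Replicate numbers were checked and were not used to pair the libraries in the main fit.

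The authors also deposited tables of their own comparisons over 14161 loci, each with a log2 fold, a likelihood ratio score, a p-value and an FDR, used only where named. Of these, the tables named for KO against WT under PB and under CITCO correlated across loci with r = 0.993 and 0.994 with the differences of the responses computed here, and with 0.269 and 0.194 with the comparisons they are named for, so neither was used for genotype.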

Additional observations from a re-analysis of the deposited data

How the results depend on the processing

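Over 55 values (5 carriers in 11 comparisons) and 730 alternative values, 703 kept their direction where called and their side of the threshold, 21 lost their call, 4 gained one and 2 reversed. The reversed ones are SLC22A7 in KO against WT on the total scaling, at 0.11 under DMSO and 0.035 under CITCO. Scaling to totals left 3 of 5 carriers called in KO against WT under DMSO and 3 of 5 under CITCO. When only the libraries compared entered the fit, 0 carriers were called for PB in WT cells (2 in the fit of all libraries) and 2 for PB in KO cells (1). With a constant prior variance 0 were called for PB in WT cells, 1 for PB against CITCO in WT cells (2) and 1 in KO cells (3). Leaving out each library in turn gave 1 to 2 called for PB in WT cells, 0 to 0 for CITCO in WT cells, 1 to 2 for PB and 0 to 0 for CITCO in KO cells, 4 to 5 for KO against WT under DMSO, 4 to 5 under PB and 5 to 5 under CITCO, 0 to 0 for both differences of responses, 2 to 2 for PB against CITCO in WT cells and 1 to 2 in KO cells; where 1 library was left in a group it was assumed to vary like the others. The called steps between neighbouring groups, 7 of 25, ranged from 6 to 8 without 1 library and from 5 to 9 over all alternatives.

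Counts over all loci moved by more than 1.5 times in several fits. PB in WT cells called 1014 loci, and 242 with only its libraries, 537 with a constant prior, 554 with edgeR and 669 by DESeq2. In WT cells CITCO called 348, and 72, 96, 137 and 206 in the same order (109 to 992 without 1 library). PB in KO cells called 1099, and 612 with a constant prior (523 to 671 without 1 library). CITCO in KO cells called 128, and 232 with only its libraries and 20 with a constant prior (40 to 55). The difference of PB responses called 159, and 84 and 25 (66 to 213), and that of CITCO responses 53, and 6 with a constant prior (23 to 491). PB against CITCO called 992 in WT cells, and 437, 434, 500 (edgeR) and 632 (DESeq2; 377 to 1215 without 1 library), and 865 in KO cells, and 1798 and 452 (392 to 457). On the total scaling the split of higher and lower calls became 8167 and 2389 (from 4646 and 4568) for KO against WT under PB, 8109 and 2512 (from 4622 and 4702) under CITCO, 480 and 708 (from 611 and 488) for PB in KO cells, 250 and 100 (from 187 and 161) for CITCO in WT cells, and 250 and 949 (from 419 and 573) in WT and 388 and 596 (from 563 and 302) in KO cells for PB against CITCO. The causes were not tested.

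The labels give the replicate numbers 1 and 2 in every group and do not say that they pair the libraries. Deviations between duplicates correlated over 0.1 in 4 of 15 pairs of groups (r from -0.078 to 0.288, the highest for WT DMSO with WT PB). Libraries of the same number may therefore share some variation in some groups. With the replicate block, 2, 0, 1, 0, 5, 4, 5, 0, 0, 2 and 3 carriers were called in the 11 comparisons and 7 of 25 steps, as without it, and PB in WT cells called 1003 loci. Count models were not run on KO libraries. Their values gave whole reads by the division used here, but their low values are too few for the general check. Read numbers given for KO libraries rest on that division alone. With 2 libraries a group, the 95% intervals of the carriers' folds bound what could be seen.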

Other observations

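Genes on either side of uptake moved in different directions between the genotypes. ABCB11, the bile salt export pump, had 18.6 ± 1.7 CPM in WT cells under DMSO and 47.2 ± 0.729 CPM in the KO cells (SD, n = 2; log2 difference 1.32, limma adjusted p = 1.1e-11), the opposite direction to the bile salt carrier SLC10A1 in the same libraries. Of 10 export pumps of bile and drugs, 2 were higher (ABCB11 and ABCC1) and 7 lower, or 3 and 6 on the total scaling. In bile acid synthesis, CYP8B1, which directs synthesis towards cholic acid, rose from 45.8 ± 2.16 to 132 ± 4.97 CPM (1.51, adjusted p = 2.94e-14). CYP7A1, the rate-limiting enzyme, fell from 73.7 ± 6.84 to 30.1 ± 0.466 CPM (-1.28, adjusted p = 1.64e-11). Of 13 synthesis and conjugation genes 6 were higher and 6 lower, or 7 and 6 on the total scaling. These 3 directions held on both scalings.

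PB raised SLC51B, which encodes a subunit of the bile acid exporter of the sinusoidal membrane, from 0.926 ± 0.331 to 2.91 ± 0.603 CPM in WT (limma adjusted p = 0.00052) and from 0.107 ± 0.0142 to 1.17 ± 0.0213 CPM in KO cells (adjusted p = 9.37e-05). These are low levels, and fold changes at such levels depend on the pseudocount.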
